A study of Homo sapiens with 15 samples.

Results

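Aminoacyl-tRNA synthetases are the enzymes that join each amino acid to its tRNA. Here 35 of their genes were followed in HK-2, an immortalised cell line from human kidney proximal tubule. Members were taken by gene symbol, or by the older symbol without the final 1, and 35 of 35 were found among the 24880 loci of the table. By name, 19 are cytosolic (ending in 1, A or B) and 16 are mitochondrial (ending in 2). The 15 libraries of polyadenylated RNA fall into 5 groups of 3, all of wild-type cells in medium with serum. Mock cells received PBS and are labelled 0 h. A pair of groups had TGFb (transforming growth factor beta, 2 ug/ml) plus DMSO as vehicle, harvested at 1 h and at 12 h. Another pair had TGFb plus FT895, an inhibitor of the deacetylase HDAC11 whose dose the sources used here do not state, at the same times. No group had FT895 without TGFb, and TGFb, DMSO and hours in culture all separate mock from the other groups.

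Cytosolic synthetases supply the ribosomes that translate nuclear genes. A separate set, coded in the nucleus and imported, supplies the mitochondrial ribosome, and GARS1 and KARS1 are single genes whose products serve both compartments. The enzymes form a pair of unrelated structural classes, I and II, and several cytosolic ones sit in a multisynthetase complex with the scaffold proteins AIMP1, AIMP2 and EEF1E1. When amino acids run short, uncharged tRNA activates the kinase GCN2, the transcription factor ATF4 is translated, and many cytosolic synthetase genes are among its known targets.

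The core of the element that ATF4 binds with its C/EBP partners, TGATGNAA, was searched on both strands of RefSeq promoter windows of GRCh38.p14, each running from 250 bases before to 50 bases after a gene start. Windows were given for 30 of the 35 members. The core was present in 7 of 16 cytosolic members (43.8%) and in 1 of 14 mitochondrial members (7.14%), beside 4.46% of the 27305 genes with a window. The 8 matches are shown because the promoters that carry them are those of enzymes whose RNA is compared in what follows. Each is read 5′ to 3′ on the gene's strand, with the matched letters in capitals.
AARS1 (chr16:70289675-70289704, minus strand): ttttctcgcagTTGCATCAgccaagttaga
CARS1 (chr11:3057407-3057436, minus strand): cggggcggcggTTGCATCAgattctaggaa
GARS1 (chr7:30594834-30594863, plus strand): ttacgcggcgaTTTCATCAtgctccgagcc
IARS1 (chr9:92293692-92293721, minus strand): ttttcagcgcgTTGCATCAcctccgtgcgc
MARS1 (chr12:57488053-57488082, plus strand): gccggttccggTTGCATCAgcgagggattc
NARS1 (chr18:57621804-57621833, minus strand): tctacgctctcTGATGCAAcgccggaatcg
TARS1 (chr5:33440956-33440985, plus strand): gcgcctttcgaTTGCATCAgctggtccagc
YARS2 (chr12:32756076-32756105, minus strand): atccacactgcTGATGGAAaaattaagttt

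In AARS1, CARS1, GARS1, IARS1, MARS1 and TARS1 the core lies in the reverse orientation, so that its complement is printed. The first matched base was -187 bases from the start of AARS1 and -197 from that of YARS2, and from -33 to 14 bases in the other six, where 0 is the first transcribed base in RefSeq, which can differ from the gene ends of GENCODE used further on. Another motif, CACGTG (the E-box), was found in 4 of the 30 members (13.3%), CARS2, EARS2, IARS1 and MARS2, beside 8.77% of all genes. In CARS2 it spans the RefSeq start, its first base at -3.
CARS2 (chr13:110706502-110706529, minus strand): gctgggatgcaCACGTGcttcgctaaca
The palindromic motif of NRF1 was present in MARS2 alone, 1 of 30 members (3.33%), beside 1.52% of all genes.

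Levels are in FPKM, a unit that divides fragments by the length of the transcript and the size of the library, so read depth is unknown. Summed FPKM ran from 386532 to 434520 per library, and 11712 to 12023 loci reached 1 FPKM. TGFb 1 h replicate 1 stood apart, with the highest sum (the next was 406560) and a residual SD of 0.211 on the log2 scale against 0.107 to 0.156 in the other libraries. Nothing in the labels ties the 3 libraries of a group to separate cultures, so the spread that p-values measure may be technical. Among markers of tubule epithelium, 10 of 20 passed the filter on low values, their sum was 805 to 841 FPKM in mock and 861 to 965 in the treated groups, and LRP2 and CDH1 were listed at 0. Of 8 fibroblast and pericyte markers 3 passed, with sums of 127 to 132 FPKM in mock, 112 to 132 in the 1 h groups and 106 to 111 in the 12 h groups, and PDGFRA was listed at 0. Endothelial sums were at most 0.0686 FPKM, with VWF and KDR at 0. Those of the distal nephron and podocyte were at most 0.0532, with UMOD, AQP2 and NPHS1 at 0. CD68 was the single leukocyte marker that passed, and leukocyte sums were 41.2 to 47.2 FPKM in mock and at 1 h and 33.3 to 38 at 12 h, with CD3E at 0. The part of these markers in the results was not tested.

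In mock cells nearly every cytosolic enzyme was more abundant per length than nearly every mitochondrial one. IARS1, for isoleucine, had the highest level at 110 ± 3.82 FPKM (SD, n = 3), and KARS1, for lysine, followed at 104 ± 3.26, with libraries that overlap those of IARS1. EPRS1, the fused enzyme for glutamate and proline, stood at 76.2 ± 1.89, below the libraries of KARS1. MARS1 (72.3 ± 2.08) and the mitochondrial IARS2 (71.4 ± 2.13) came next, overlapping each other and, for MARS1, EPRS1. FARSB, the beta subunit of the phenylalanine enzyme, had the lowest cytosolic level at 18.3 ± 0.498. Its partner subunit FARSA stood at 39.3 ± 3.09. IARS2 and RARS2 (27.4 ± 0.891, for arginine) were the mitochondrial members that exceeded some cytosolic ones, and the other 14 ran from 12.8 ± 0.69 for TARS2 to 2.33 ± 0.214 for PARS2, the enzyme for proline. The sum over cytosolic members was 1040 ± 14.3 FPKM and that over mitochondrial members 210.3 ± 4.03.

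**Figure D1:**
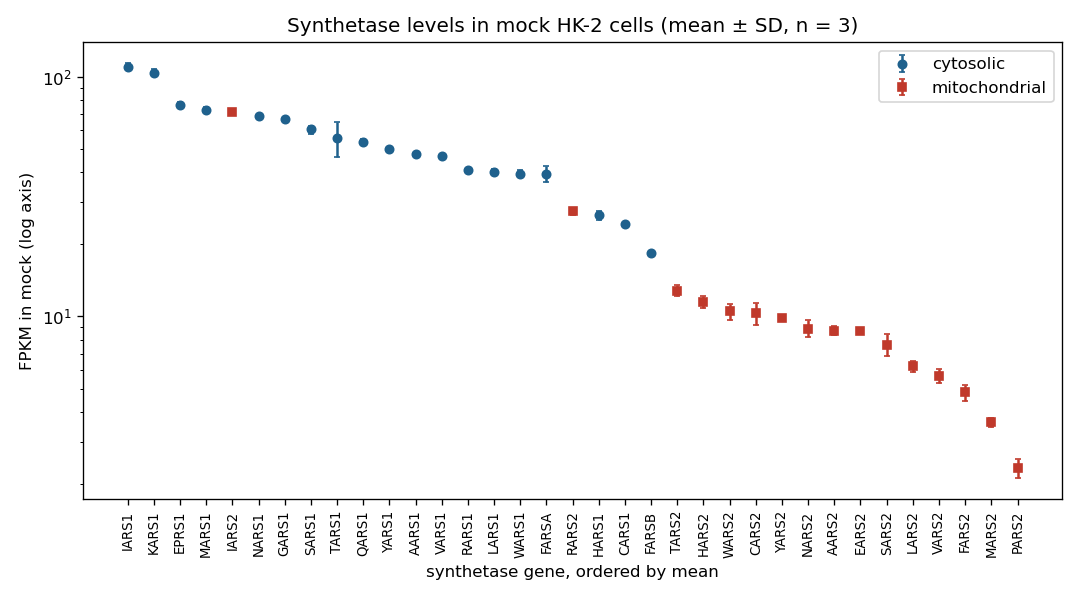
FPKM of the 35 synthetase genes in mock cells on a log axis, ordered by mean (points, mean of 3 libraries; bars, SD; blue circles cytosolic, red squares mitochondrial). Cytosolic members lie between 18.3 and 110 FPKM, and apart from IARS2 and RARS2 the mitochondrial members lie at or under 12.8.

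After 12 h of TGFb, on the deposited scale, cytosolic members were called in both directions, while the calls of mitochondrial members were mostly falls. Against mock, 7 of 19 cytosolic members rose (SARS1, LARS1, YARS1, CARS1, GARS1, MARS1 and AARS1) and 4 fell (FARSB, FARSA, VARS1 and KARS1). Of 16 mitochondrial members 9 fell, led by CARS2, WARS2 and VARS2, and TARS2 alone rose. The fit was limma on log2(FPKM + 1) with Benjamini-Hochberg adjustment over the 12467 loci with at least 1 FPKM in at least 3 libraries, and calls were made at an adjusted p under 0.05. All 35 members passed that filter. In all, 8 members were called up and 13 down, beside 14.2% and 24.5% of all tested loci (38.6% in either direction). The median change was -0.024 for cytosolic members, -0.251 for mitochondrial members and -0.080 for all loci. The same medians were 0.055, -0.176 and -0.009 with median-of-ratios scaling, and 0.028, -0.178 and -0.032 with quantile normalization. The split of calls depends on the scaling between libraries: 9 up and 6 down with median-of-ratios scaling, and 8 up and 7 down with quantile normalization, beside 36.7%, 52.3% and 46.9% of all called loci up in the deposited scale, median-of-ratios and quantile scales. FARSA, KARS1, FARS2, HARS2, NARS2 and YARS2 were no longer called in both other scalings, nor VARS1 with median-of-ratios scaling. Among the cytosolic falls FARSB alone kept its call in both. Of the 21 calls 10 were made under every alternative. Without mock replicate 1, and likewise without TGFb 12 h replicate 3, 13 of the members were called. In bulk RNA, fewer cells of a type and less RNA per cell cannot be told apart.

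**Figure D2:**
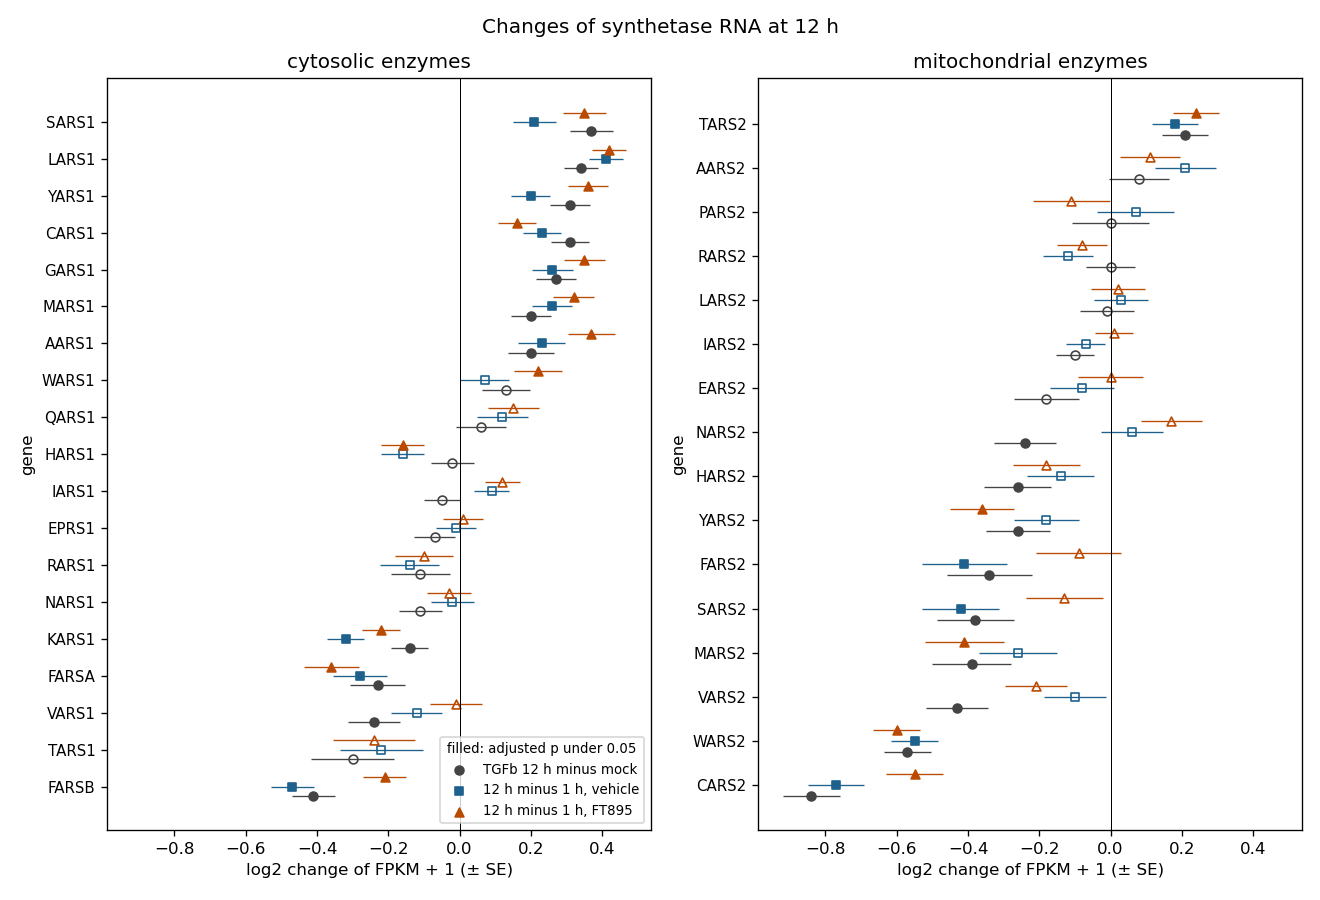
Log2 change of FPKM + 1 (± SE) of each synthetase gene for TGFb 12 h minus mock (grey circles), 12 h minus 1 h with vehicle (blue squares) and 12 h minus 1 h with FT895 (orange triangles); filled symbols have an adjusted p under 0.05 and genes are ordered by the first comparison. Cytosolic changes run from -0.47 to 0.42 on both sides of 0, and the mitochondrial changes reach -0.84 in CARS2.

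LARS1, which charges leucine tRNA and also acts as a leucine sensor for mTORC1 (chr5:146113038-146182660, minus strand, GENCODE v29 on GRCh38), had 40.9, 40.4 and 38.8 FPKM in mock, 39.1, 36.7 and 38.2 at TGFb 1 h, and 53.5, 50 and 49.1 at TGFb 12 h. With FT895 it had 40.4, 39.7 and 39.6 at 1 h and 53.5, 53.3 and 54 at 12 h. All 6 libraries of 12 h exceeded all 9 of mock and 1 h, and the change at TGFb 12 h from mock was 0.34 ± 0.0476 (SE; limma adjusted p = 5.65e-05). SARS1, for serine (chr1:109213918-109238169, plus strand), had 59.4, 62.8 and 58.4 FPKM in mock, 74.7, 63.9 and 64.2 at TGFb 1 h and 77.3, 78.4 and 79.1 at TGFb 12 h. In the FT895 groups it had 64.5, 66.1 and 64.4 at 1 h and 79.7, 82.8 and 86.3 at 12 h. Every 12 h library was above every other one, the nearest being TGFb 1 h replicate 1. Its change from mock was 0.37 ± 0.06 (adjusted p = 0.00018).

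YARS1, the tyrosine enzyme (chr1:32775237-32818153, minus strand), measured 49.7, 51 and 49.1 FPKM in mock, 54.1, 55.5 and 53.1 at TGFb 1 h and 61.2, 61.9 and 63.7 at TGFb 12 h. With FT895 it measured 54.1, 51.1 and 56 at 1 h and 67.2, 65.6 and 74.7 at 12 h. The 12 h libraries again lay above all others, and the change from mock was 0.31 ± 0.055 (adjusted p = 0.000398). For GARS1, the glycine enzyme of both compartments (chr7:30594681-30634033, plus strand), the values were 67.4, 65.7 and 65.9 FPKM in mock, 65.2, 71.5 and 63.6 at TGFb 1 h and 81.7, 75.8 and 83.5 at TGFb 12 h. They were 69.7, 68.1 and 68.2 with FT895 at 1 h and 83.3, 88.5 and 92.2 at 12 h. No library of 12 h overlapped the earlier ones, and the change from mock was 0.27 ± 0.057 (adjusted p = 0.00167).

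MARS1, which charges both initiator and elongator methionine tRNA (chr12:57475445-57517569, plus strand), had 74.7, 71.6 and 70.7 FPKM in mock, 63.2, 71.3 and 73.9 at TGFb 1 h and 84, 82 and 83.5 at TGFb 12 h. Its values with FT895 were 73.7, 70.4 and 74.3 at 1 h and 89.5, 89.8 and 93.9 at 12 h, and the 12 h libraries were above all others. The change from mock was 0.20 ± 0.0567 (adjusted p = 0.0122). DDIT3, the stress factor CHOP, shares 355 exonic bases with MARS1 on the opposite strand, and since no strand is stated for the counting, reads there cannot be assigned. DDIT3 itself was not called (0.07, adjusted p = 0.773). AARS1, for alanine (chr16:70252295-70289543, minus strand), had 47.7, 47.6 and 47.9 FPKM in mock, 42.6, 51 and 46.2 at TGFb 1 h and 53.4, 57.3 and 53.9 at TGFb 12 h. With FT895 it had 43.9, 45.6 and 48.4 at 1 h and 56.2, 60.2 and 62.2 at 12 h, again with no overlap between 12 h and the rest. Its change from mock was 0.20 ± 0.0652 (adjusted p = 0.0273). The call was lost without any 1 of the 3 mock libraries, where the adjusted p was 0.0681, 0.0673 and 0.0617 for replicates 1, 2 and 3, and also without TGFb 12 h replicate 2 (0.106) or 3 (0.0502). CARS1, the cysteine enzyme, went from 24.3 ± 0.346 in mock to 30.4 ± 0.426 FPKM at TGFb 12 h (0.31 ± 0.0533, adjusted p = 0.000327).

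The 7 members that rose carry different amino acids and belong to both classes. Among cytosolic class I enzymes 4 of 9 rose and 1 fell, with a median change of 0.132, and among class II enzymes 3 of 9 rose and 3 fell, with a median of -0.114, leaving out the dual-class EPRS1. Of the 7 cytosolic members with TGATGNAA in the promoter window 4 rose and 0 fell (AARS1, CARS1, GARS1 and MARS1, median of the 7 at 0.20). Of the 9 windows without it 1 rose and 3 fell (median -0.070). IARS1, NARS1 and TARS1 hold the core and were not called, at -0.05, -0.11 and -0.30. YARS2, the mitochondrial member with the core, fell (-0.26, limma adjusted p = 0.0322). SARS1 rose without it, and LARS1, VARS1 and YARS1 had no window. These counts rest on few genes and carry no test.

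Both subunits of the cytosolic phenylalanine enzyme fell. FARSB (chr2:222570536-222656337, minus strand), had 18.8, 17.8 and 18.3 FPKM in mock, 21, 18 and 18.5 at TGFb 1 h and 14, 13 and 13.6 at TGFb 12 h. With FT895 it had 19.4, 19 and 18.1 at 1 h and 16.3, 16.4 and 15.7 at 12 h. The 12 h libraries were below all the rest, those with vehicle lowest. The change at TGFb 12 h from mock was -0.41 ± 0.0602 (limma adjusted p = 8.06e-05). FARSA (chr19:12922479-12934037, minus strand), had 42.1, 36 and 39.8 FPKM in mock, 40, 41.6 and 40.7 at TGFb 1 h and 32.7, 37.6 and 30 at TGFb 12 h, and with FT895 41.6, 39.2 and 43.5 at 1 h and 32.3, 32.9 and 31 at 12 h. Mock replicate 2 and TGFb 12 h replicate 2 overlap, and the change was -0.23 ± 0.0764 (adjusted p = 0.0274). It missed the threshold without mock replicate 1 (adjusted p = 0.122) or 3 (0.0758), without TGFb 12 h replicate 1 (0.0688) or 3 (0.14), and with median-of-ratios or quantile scaling.

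KARS1, the lysine enzyme of both compartments and a part of the multisynthetase complex (chr16:75627474-75648643, minus strand), moved both ways. It had 103, 102 and 108 FPKM in mock, 116, 120 and 118 at TGFb 1 h and 89.1, 97.8 and 96.8 at TGFb 12 h. With FT895 it had 110, 110 and 116 at 1 h and 90.9, 98.1 and 98.5 at 12 h. The highest libraries are those of TGFb 1 h, and all 6 at 12 h lie below mock. The fall between 1 h and 12 h was -0.32 ± 0.0526 with vehicle (limma adjusted p = 0.000248) and -0.22 ± 0.0526 with FT895 (adjusted p = 0.00473), the second lost with either other scaling. The change from mock at 12 h was -0.14 ± 0.0526 (adjusted p = 0.049). That last call was lost in both other scalings and in 13 of the 15 fits that left out 1 library, with adjusted p from 0.0501 to 0.177. VARS1, for valine, went from 46.7 ± 0.0301 in mock to 39.4 ± 2.33 FPKM at TGFb 12 h (-0.24 ± 0.0718, adjusted p = 0.0155; 0.0634 without TGFb 12 h replicate 1, and not called with median-of-ratios scaling).

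Largest of all was the fall of CARS2, the mitochondrial cysteine enzyme (chr13:110641412-110713603, minus strand). It had 10.6, 11.3 and 9.2 FPKM in mock, 9.62, 9.46 and 10.4 at TGFb 1 h and 5.34, 5.38 and 5.29 at TGFb 12 h, and with FT895 9.1, 10.3 and 10 at 1 h and 6.5, 6.89 and 5.74 at 12 h. The 12 h libraries were far below all others, and those with vehicle were below those with FT895. The change from mock was -0.84 ± 0.0795 (limma adjusted p = 1.08e-06). WARS2, for mitochondrial tryptophan (chr1:119031216-119140671, minus strand), had 9.73, 10.5 and 11.3 FPKM in mock, 10.3, 10.4 and 10.5 at TGFb 1 h and 6.91, 6.61 and 6.75 at TGFb 12 h. With FT895 it had 10.6, 10.3 and 10.7 at 1 h and 7.04, 6.87 and 6.02 at 12 h. The libraries of 12 h did not overlap the others, and the change from mock was -0.57 ± 0.0654 (adjusted p = 7.84e-06). CARS2 shares 326 exonic bases with ING1 on the opposite strand, 3.12% of its exons. ING1 fell from mock (-0.25, adjusted p = 0.0248) and was at 0.05 from 1 h to 12 h with vehicle (adjusted p = 0.652).

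VARS2, for mitochondrial valine (chr6:30908242-30926459, plus strand), had 5.23, 5.88 and 5.86 FPKM in mock, 3.79, 4.29 and 4.85 at TGFb 1 h and 4.22, 3.61 and 4.01 at TGFb 12 h. In the FT895 groups it had 5.15, 4.93 and 5.11 at 1 h and 4.07, 4.8 and 3.91 at 12 h. The mock libraries were above all the treated ones, and its change at TGFb 12 h was -0.43 ± 0.0871 (limma adjusted p = 0.00128). On its own strand it shares 22% of its exonic bases with GTF2H4, which was not called (-0.14, adjusted p = 0.152). SARS2, for mitochondrial serine (chr19:38915266-38930896, minus strand), had 8.48, 6.86 and 7.51 FPKM in mock, 8.36, 8.23 and 7.02 at TGFb 1 h and 5.48, 5.55 and 5.75 at TGFb 12 h. With FT895 it had 5.34, 7.13 and 7.24 at 1 h and 5.3, 6.67 and 5.73 at 12 h, where the groups overlap. Its change from mock at TGFb 12 h was -0.38 ± 0.108 (adjusted p = 0.0119; 0.0618 without mock replicate 1). MRPS12, a mitochondrial ribosomal protein gene, shares 349 bases, 10.8% of the SARS2 exons, on the opposite strand, and it fell as well (-0.39 ± 0.077, adjusted p = 0.001). On its own strand SARS2 shares 1492 bases, 46.2% of its exons, with the locus ENSG00000269547, which was at most 0.0244 FPKM. The part of these shared bases was not tested.

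The remaining mitochondrial calls were smaller. MARS2 changed by -0.39, FARS2 by -0.34, HARS2 by -0.26, YARS2 by -0.26 and NARS2 by -0.24 at TGFb 12 h from mock, with limma adjusted p from 0.0109 to 0.0412. TARS2, for mitochondrial threonine, rose from 12.8 ± 0.69 to 15 ± 0.498 FPKM (0.21 ± 0.0645, adjusted p = 0.0187). Each of these 6 calls was lost without at least 1 of the libraries. MARS2 had an adjusted p of 0.055 without TGFb 12 h replicate 3. TARS2 lost its call in 3 of the 15 fits without 1 library (adjusted p 0.0597 to 0.0889), FARS2 in 5 (0.0512 to 0.185), HARS2 in 6 (0.0506 to 0.159), YARS2 in 5 (0.0602 to 0.119) and NARS2 in 4 (0.106 to 0.132). FARS2, HARS2, YARS2 and NARS2 were not called with either other scaling. HARS1 and HARS2 overlap at their 5′ ends on opposite strands and share 437 exonic bases, 11.7% of those of HARS2, so their reads cannot be fully separated. The sum over mitochondrial members went from 210.3 ± 4.03 in mock to 186.8 ± 3.53 FPKM at TGFb 12 h, and that over cytosolic members from 1040 ± 14.3 to 1071 ± 7.64.

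**Figure D3:**
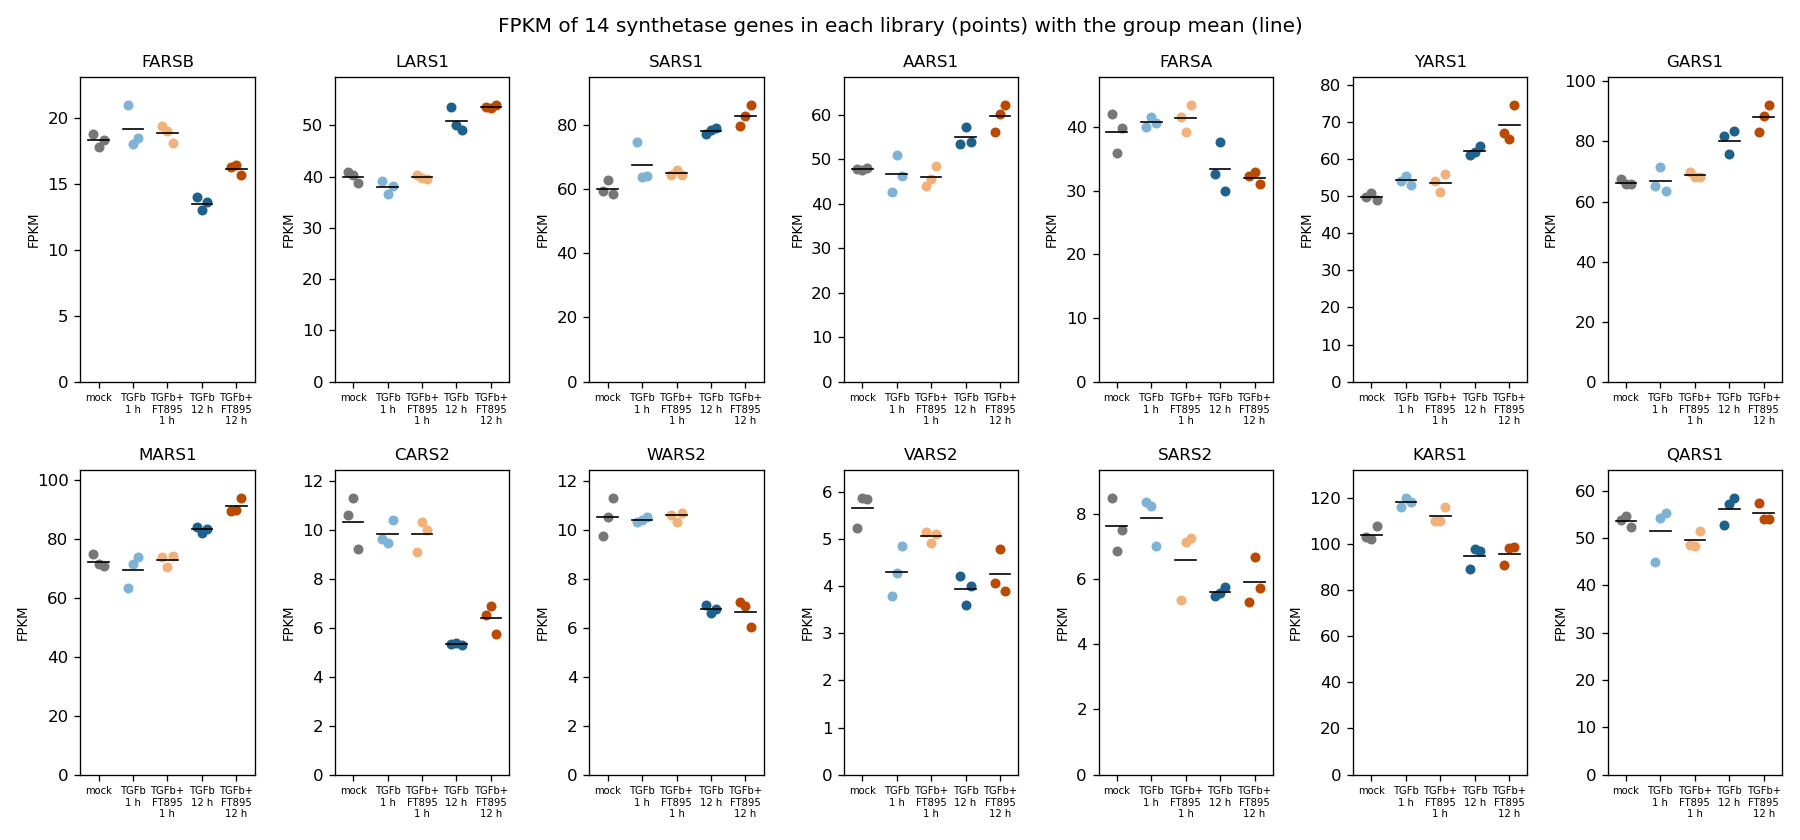
FPKM of 14 synthetase genes in each of the 15 libraries (points, 3 per group, linear axis from 0) with the group mean (line). The 12 h groups lie above the others for LARS1, SARS1, YARS1, GARS1, MARS1 and AARS1, and below them for FARSB, KARS1, CARS2 and WARS2.

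The ratio of a cytosolic enzyme to the mitochondrial enzyme for the same amino acid is computed within a library, so a scaling factor common to both genes cancels. For cysteine, CARS1 over CARS2, the ratio was 2.32, 2.12 and 2.65 in mock, 2.51, 2.87 and 2.49 at TGFb 1 h and 5.74, 5.55 and 5.78 at TGFb 12 h. With FT895 it was 2.9, 2.57 and 2.77 at 1 h and 4.52, 4.27 and 5.51 at 12 h, so both 12 h groups were above all the earlier libraries. Ratios also were higher at 12 h for methionine (geometric mean 20.1 in mock, 33.2 at TGFb 12 h and 38.6 with FT895), serine (7.93, 14 and 14.1), tryptophan (3.75, 6.4 and 7.27) and tyrosine (5.08, 7.76 and 9.27). Threonine went the other way, from 4.3 to 2.97 and 3.04. Leucine had 6.46, 8.25 and 8.49, and the ratios differed less for alanine (5.48, 5.94 and 6.77), isoleucine (1.54, 1.61 and 1.74) and arginine (1.49, 1.37 and 1.47). Histidine had 2.3, 2.75 and 3.01, valine 8.27, 9.99 and 10.1, and asparagine 7.69, 8.58 and 7.81. EPRS1 over EARS2 was 8.75, 9.59 and 9.45, and EPRS1 over PARS2 32.8, 31.4 and 38.9. For phenylalanine FARSA over FARS2 was 8.15, 9.3 and 7.61, and FARSB over FARS2 3.8, 3.78 and 3.83. Between 1 h and 12 h with FT895 the ratio went from 9.15 to 7.81 for asparagine and from 9.09 to 7.61 for FARSA over FARS2. All ratios are a description and were not tested.

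**Figure D4:**
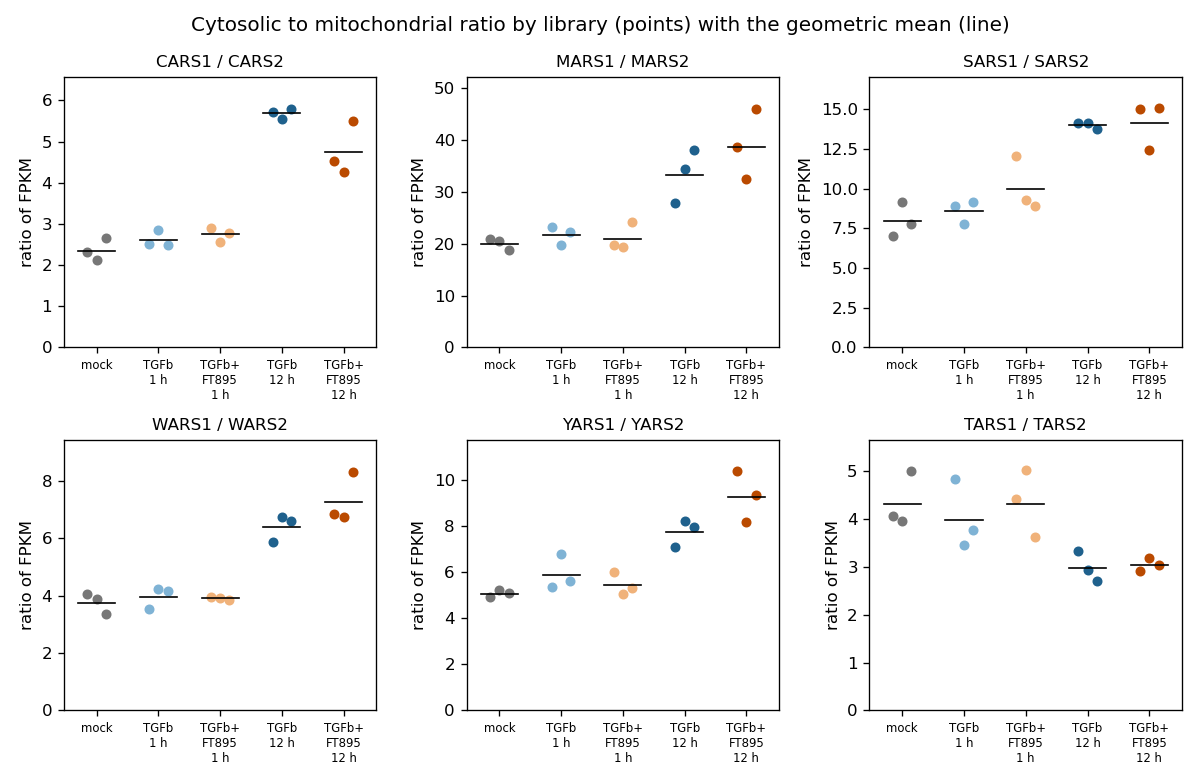
Ratio of cytosolic to mitochondrial FPKM for 6 amino acids in each library (points; line, geometric mean of 3; linear axis from 0). CARS1 over CARS2 goes from 2.36 in mock to 5.69 at TGFb 12 h, and TARS1 over TARS2 from 4.3 to 2.97.

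How far the change with time was alike in the vehicle and FT895 arms, which share no library, was read from 12 h minus 1 h within each arm. With vehicle 8 members rose and 7 fell, beside 16.8% and 24.2% of all loci (41% called), and with FT895 9 rose and 8 fell, beside 13.5% and 24.8% (38.2% called). Of 19 cytosolic members 7 rose and 3 fell with vehicle, and 8 rose and 4 fell with FT895 (medians 0.066 and 0.125). Of 16 mitochondrial members 1 rose and 4 fell in each arm (medians -0.108 and -0.103), with falls near the share of all loci. The medians of all loci were -0.045 with vehicle and -0.086 with FT895. A total of 13 were called in the same direction in both, which is 86.7% of the 15 vehicle calls and 76.5% of the 17 FT895 calls, and 0 in opposite directions. Up in both were AARS1, CARS1, GARS1, LARS1, MARS1, SARS1, YARS1 and TARS2, and down in both CARS2, WARS2, FARSA, FARSB and KARS1. Over all loci 11.2% were up in both and 17.5% down in both, which is 69.9% of all vehicle calls and 75% of all FT895 calls. For cytosolic members the same shares were 100% and 83.3%. For mitochondrial members they were 60% in each arm, 3 of 5 calls, below the shares of all loci. FARS2 and SARS2 were called in the vehicle arm only, and HARS1, MARS2, WARS1 and YARS2 in the FT895 arm only, but a difference between arms is the interaction described under FT895, and it was called for none of them. With the other scalings the FT895 arm gave 12 up and 5 down, and the vehicle arm 10 up with 7 or 8 down. When only the groups compared entered the fit, 7 vehicle calls were made in place of 15. The vehicle arm shares its TGFb 12 h libraries with the comparison against mock.

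Within those arms, LARS1 rose by 0.41 ± 0.0476 with vehicle and 0.42 ± 0.0476 with FT895 (limma adjusted p = 9.84e-06 and 8.63e-06). WARS2 changed by -0.55 ± 0.0654 and -0.60 ± 0.0654 (1.19e-05 and 5.36e-06), and CARS2 by -0.77 ± 0.0795 and -0.55 ± 0.0795 (2.88e-06 and 7.55e-05). FARSB changed by -0.47 ± 0.0602 and -0.21 ± 0.0602 (2.54e-05 and 0.012), the second with an adjusted p of 0.0501 without FT895 1 h replicate 1 and not called under the other scalings. WARS1, the tryptophan enzyme that interferon gamma induces, rose by 0.22 ± 0.0682 in the FT895 arm (adjusted p = 0.0197, lost in 3 of 15 fits without 1 library, at 0.051 to 0.0752). HARS1 was at -0.16 in both arms, with adjusted p of 0.0505 with vehicle and 0.0482 with FT895, and the second was lost in 10 of those 15 fits (0.0523 to 0.146). CARS1 in the FT895 arm (0.16, adjusted p = 0.0292) was lost in 3 (0.0867 to 0.123). TARS2 was lost in 4 with vehicle (0.0689 to 0.0969) and, at 0.0504, without FT895 1 h replicate 1 in the FT895 arm. FARS2 with vehicle (-0.41, adjusted p = 0.014) was lost in 2 (0.0584 and 0.073).

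At 1 h of TGFb with vehicle, 3 of the 35 members were called against mock, near the share of all loci. KARS1 was higher than in mock (0.18 ± 0.0526, limma adjusted p = 0.0482), and VARS2 (-0.33 ± 0.0871, adjusted p = 0.0329) and NARS2, for mitochondrial asparagine (-0.30 ± 0.0858, adjusted p = 0.0428), were lower. NARS2 had 9.16, 9.44 and 8.07 FPKM in mock and 7.05, 6.4 and 7.61 at TGFb 1 h, with no overlap. These calls, 1 up and 2 down among 35 members, stand beside 3.7% of all loci up and 5.28% down (8.98% called). They are fragile: between 0 and 3 members were called when 1 library was left out (0 without any one of the mock libraries, 1 without TGFb 1 h replicate 1, where KARS1 stayed at an adjusted p of 0.0376 and VARS2 went to 0.0811 and NARS2 to 0.0635), 0 with no filter on low values or with only the groups compared, 1 with quantile normalization, which was IARS1, and 11 with weights for library quality. The medians were 0.008 for cytosolic (-0.051 with quantile normalization, 0.054 with median-of-ratios scaling) and -0.070 for mitochondrial members, beside -0.028 for all loci.

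Adding FT895 to TGFb gave no called change of any synthetase at 1 h or at 12 h, and none of the interaction. Among all loci 0.0722%, 0.016% and 0.168% were called in those comparisons. At an unadjusted p under 0.05 there were 3, 8 and 1 of 35 members, beside 13.8%, 6.15% and 7.84% of all loci. The largest difference at 12 h was in FARSB, at 13.5 ± 0.528 FPKM with vehicle and 16.1 ± 0.36 with FT895 (0.24 ± 0.0602, unadjusted p = 0.00137, limma adjusted p = 0.255, higher in 3 of 3 libraries). Its adjusted p was 0.0408 without TGFb 1 h replicate 1 and 0.0217 with library weights. NARS2 (0.23 ± 0.0858) and CARS2 (0.22 ± 0.0795) followed, with adjusted p of 0.679 and 0.654. At 12 h the libraries with FT895 lay above all with vehicle for 10 members, beside 7.83% of all loci, and below for 1, PARS2, beside 6.08%. Those above were FARSB, IARS1, MARS1, NARS1, SARS1, VARS1, WARS1 and YARS1 of the 19 cytosolic members, and CARS2 and NARS2 of the 16 mitochondrial ones.

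Individually these differences were small. For YARS1 the difference at 12 h was 0.15 ± 0.055, with an interval of 2 SE from 0.037 to 0.257, for WARS1 0.15 ± 0.0682 (0.0156 to 0.288) and for KARS1 0.02 ± 0.0526 (-0.086 to 0.124). QARS1, the glutamine enzyme, which has no mitochondrial partner gene, had 52.8, 57.2 and 58.5 FPKM with vehicle and 57.5, 54.1 and 54.1 with FT895 at 12 h. It had 53.8, 54.7 and 52.3 in mock, 44.9, 54.3 and 55.4 at TGFb 1 h and 48.6, 48.3 and 51.6 with FT895 at 1 h. The groups at 12 h overlap, and its difference was -0.02 ± 0.0715 (-0.165 to 0.121; limma adjusted p = 0.998). The sum over cytosolic members was 1080, 1069 and 1065 FPKM at TGFb 12 h and 1115, 1137 and 1163 with FT895, with no overlap. The mitochondrial sums overlap, at 190.7, 184 and 185.5 and at 186.8, 193.5 and 187.2. The median difference at 12 h was 0.109 for cytosolic and 0.005 for mitochondrial members, beside 0.010 for all loci, and at 1 h it was 0.022 (-0.041 with median-of-ratios scaling), 0.031 (-0.036 with quantile normalization) and 0.044. At 1 h 2 members lay above (LARS1 and VARS2) and 1 below (KARS1), beside 12.8% and 3.51% of all loci. The interaction, the FT895 difference at 12 h minus that at 1 h, was largest in FARS2 (0.31 ± 0.169, adjusted p = 0.68), SARS2 (0.30 ± 0.153, 0.666) and FARSB (0.26 ± 0.0851, 0.553).

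**Figure D5:**
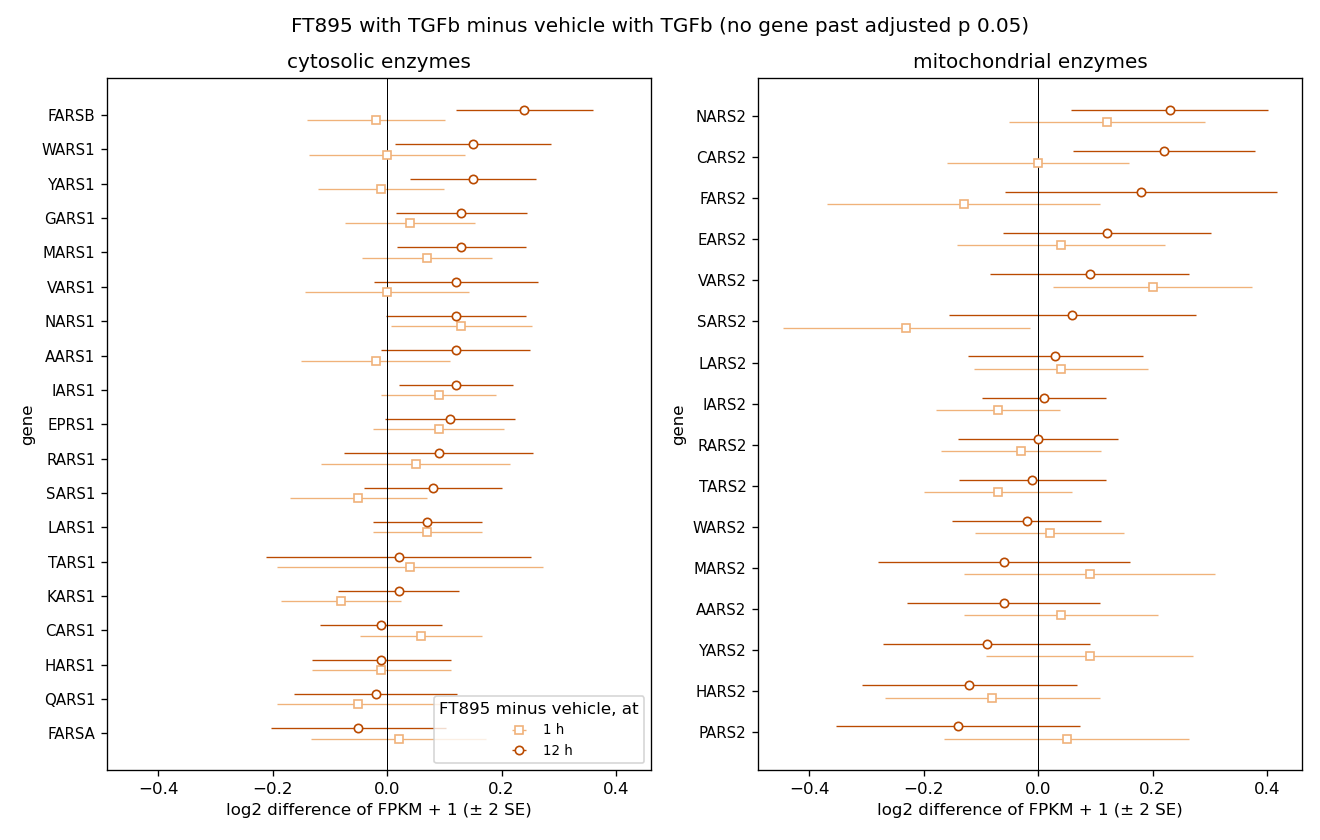
Log2 difference of FPKM + 1 between FT895 with TGFb and vehicle with TGFb at 1 h (light squares) and 12 h (dark circles) for each synthetase gene (bars, ± 2 SE). At 12 h the cytosolic differences run from -0.05 to 0.24, and none of the 35 genes has an adjusted p under 0.05 at either time.

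Of the 7 enzymes of the multisynthetase complex 2 rose and 1 fell at TGFb 12 h from mock, and of its 3 scaffolds 2 fell. Over all loci 14.2% rose and 24.5% fell (38.6% called), and the counts of the complex rest on few genes. LARS1 and MARS1 rose, and KARS1 fell, a call lost in 16 of the 24 alternatives. EPRS1, IARS1, QARS1 and RARS1 were not called (-0.07, -0.05, 0.06 and -0.11). Among the scaffolds AIMP2 went from 29.8 ± 0.706 to 20.7 ± 1.33 FPKM (-0.50 ± 0.0822, limma adjusted p = 0.000214). EEF1E1 went from 36.1 ± 1.66 to 25.2 ± 1.67 (-0.50 ± 0.116, adjusted p = 0.00319). AIMP1 was at 18.9 ± 0.457 and 15.8 ± 1.73 (-0.24 ± 0.112, adjusted p = 0.104). Between 1 h and 12 h with FT895, AIMP2 was called (-0.28, adjusted p = 0.0133) and EEF1E1 was not (-0.27, adjusted p = 0.0749). With median-of-ratios scaling 0 of the 3 scaffolds were called in that arm.

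Genes of the amino acid response that ATF4 drives mostly rose at TGFb 12 h. Of 34 tested, 19 rose and 3 fell (55.9% and 8.82%, beside 14.2% and 24.5% of all loci), with a median of 0.362 beside -0.080 for all loci. SLC7A5 and SLC3A2, the 2 chains of a transporter for large neutral amino acids, rose by 1.40 ± 0.082 and 0.70 ± 0.0544 (limma adjusted p = 5.22e-09 and 1.17e-07), and SLC7A11, the cystine transporter, by 0.71 ± 0.0917 (2.4e-05). ASNS, asparagine synthetase and a textbook ATF4 target, went from 21 ± 1.19 to 28.1 ± 1.95 FPKM (0.41 ± 0.0819, adjusted p = 0.00123). ATF4 RNA itself was not called against mock (0.23 ± 0.104, adjusted p = 0.0974), and between 1 h and 12 h it rose in the FT895 arm by 0.46 (adjusted p = 0.0029) with -0.05 in the vehicle arm (adjusted p = 0.753), an interaction that did not pass (0.51, adjusted p = 0.448). The list held 16 up and 4 down between 1 h and 12 h with vehicle, and 19 up and 2 down with FT895. Its only call with FT895 was DDIT4, an inhibitor of mTORC1, at -0.64 at 1 h (adjusted p = 0.000156) and 0.45 at 12 h (0.0115), a difference between times that was itself called (interaction adjusted p = 2.67e-05).

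Other genes of translation are given beside the 14.2% of all loci up and 24.5% down at TGFb 12 h from mock. Mitochondrial ribosomal proteins had 1 up and 27 down of 80 (33.8% down, median -0.190), with 12 down in median-of-ratios scaling and 39 without TGFb 1 h replicate 1. Mitochondrial translation factors had 1 up and 7 down of 15 (46.7% down, median -0.210), among them LRPPRC, which stabilises mitochondrial messages (-0.46 ± 0.065, limma adjusted p = 5.61e-05). Cytosolic ribosomal proteins had 0 up and 2 down of 84 (2.38% down, median -0.041). That count was 0 with median-of-ratios scaling, where the median was 0.039, 6 with quantile normalization and 15 without TGFb 1 h replicate 1. Cytosolic initiation and elongation factors had 0 up and 12 down of 24 (50% down, median -0.169), or 6 down with median-of-ratios scaling, and EIF6, which keeps ribosomal subunits apart, fell by 0.55 on the log2 scale (adjusted p = 4.33e-05). MYC and nucleolar growth genes had 0 up and 13 down of 19 (68.4% down, median -0.391), led by RRS1 (-0.84), NOP58 (-0.83) and NOP56 (-0.71), the last 2 being proteins of box C/D small nucleolar particles. MYC itself was not called at TGFb 12 h: it had 102 ± 4.92 FPKM in mock, 60.1 ± 4.81 at TGFb 1 h (-0.76 ± 0.0684, adjusted p = 3.62e-06) and 106 ± 4.38 at TGFb 12 h (0.05 from mock, adjusted p = 0.586).

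RNA polymerase III, which makes tRNA, had 1 up and 9 down of 21 (42.9% down, median -0.235), among them its subunits POLR3C (-0.55) and POLR3B (-0.48), with 6 down in both other scalings. Genes of mTORC1 and leucine sensing had 2 up and 8 down of 23 (34.8% down), the 2 being CASTOR1, an arginine sensor (1.59 ± 0.148, limma adjusted p = 8.76e-07), and SESN2, a leucine sensor and ATF4 target (0.57 ± 0.111, adjusted p = 0.000976), and 4 fell with median-of-ratios scaling. Of the sensors of uncharged tRNA and other genes of the integrated stress response, 0 rose and 5 fell of 14 (35.7% down), with 1 falling in median-of-ratios and 3 in quantile scaling. PPP1R15A, which restarts translation, changed by -0.47 (adjusted p = 0.000888). Synthetase relatives and tRNA charging partners had 1 up and 3 down of 13 (7.69% and 23.1%, near the shares of all loci), with 1 down in both other scalings. TARS3, the close relative of TARS1, rose by 0.70 ± 0.0964 (adjusted p = 4.37e-05), whereas TARS1 had 55.6 ± 9.36 FPKM in mock and 44.6 ± 3.19 at TGFb 12 h (-0.30 ± 0.116, adjusted p = 0.0524). Reads of such relatives may be shared and cannot be checked from FPKM. Interferon gamma genes, which can induce WARS1, had 3 up and 3 down of 12 (25% each, beside 14.2% and 24.5% of all loci), and IFIT3, an interferon-induced antiviral gene, changed by -0.87 ± 0.115 (adjusted p = 3.02e-05), beside WARS1 at 39.4 ± 1.39 and 43.3 ± 2.42 FPKM (0.13 ± 0.0682, adjusted p = 0.144).

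A total of 12 members were called in none of the 7 comparisons. They are EPRS1, IARS1, NARS1, QARS1, RARS1 and TARS1 of the cytosolic set and AARS2, EARS2, IARS2, LARS2, PARS2 and RARS2 of the mitochondrial set. The 3 most abundant of these in mock, IARS1, EPRS1 and IARS2, differed at TGFb 12 h from mock by -0.05 (interval of 2 SE -0.146 to 0.0538), -0.07 (-0.184 to 0.0437) and -0.10 (-0.211 to 0.0054). For the sparse PARS2 the interval was wider, from -0.218 to 0.21. The ratio of IARS1 to IARS2 ran from 1.44 to 1.74 over the 5 groups.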

How the data were processed

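Polyadenylated RNA of 15 HK-2 libraries was sequenced. The submitters' processing notes name HISAT2, StringTie and the build GRCh38. Their versions, the annotation release and the strand setting are not stated there. The authors deposited FPKM, 1 column per library, and no counts, so depth is unknown and no counting interval is given. Names and coordinates of members are those of GENCODE v29. From the deposited FPKM, log2(FPKM + 1) was computed, a scale that understates changes of genes near 1 FPKM. Loci with at least 1 FPKM in at least 3 libraries (12467) entered 1 linear model in limma 3.58.1 under R 4.3.3, with a mean per group over all 15 libraries and a variance trend (10 residual degrees of freedom). Tests were two-sided, with Benjamini-Hochberg adjustment over all loci in each of 7 comparisons. The fit was tested on simulated data.

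Members and lists were chosen with earlier results of these data known. Values by library are given for the 8 cytosolic and 4 mitochondrial members of largest called change and for GARS1, KARS1 and QARS1. Of each list up to 3 called genes of largest change are drawn on, with ASNS, ATF4, MYC, AIMP1 and overlapping genes named after their values were seen, and a few genes are not reported here. A planned search of protein signatures was not run. Replicate numbers did not pair libraries: same-number residual correlations were -0.137 to 0.113 (median 0.00425). The alternatives were the pseudocount, the filter, the scaling, the groups fitted, the variance model, library weights, a replicate block and leaving out each library.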

Additional observations from a re-analysis of the deposited data

How the results depend on the processing

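No called change of a member changed sign under the 24 alternatives, but medians near 0 did, as the values show. Counts of called members that moved by over 1.5 times were as follows. For TGFb 1 h minus mock (3), 0 were called with no filter on low values and with only the groups compared, 1 with quantile normalization, 11 with library weights and 0 to 3 without 1 library. For TGFb 12 h minus mock (21), leaving out 1 library gave 13 to 24. For 12 h minus 1 h with vehicle (15) the groups compared alone gave 7. FT895 at 1 h had 4 with library weights (RARS1, NARS1 and EPRS1 higher, QARS1 lower), and at 12 h 1 (FARSB), also the highest count without 1 library (0 to 1). Medians of cytosolic members moved with median-of-ratios scaling to 0.054 (TGFb 1 h minus mock), 0.055 (12 h minus mock), 0.211 (FT895 arm, 12 h minus 1 h), -0.041 (FT895 at 1 h) and 0.095 (interaction), and with quantile normalization to -0.051, 0.028 and 0.172 in the first 3 and to 0.127 in the vehicle arm. That arm's median was 0.016 with library weights and 0.031 to 0.110 without 1 library. Mitochondrial medians moved to -0.176 (median-of-ratios) and -0.178 (quantile) for 12 h minus mock, to -0.037 and -0.036 (quantile) for the FT895 arm and FT895 at 1 h, and to -0.003 with library weights for TGFb 1 h minus mock. The cause was not tested.

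The replicate block gave 2, 20, 15 and 16 called members in the first 4 comparisons and 0 in the others, and 3 of 15 libraries correlated best with their own number. Among called members, KARS1 lost its call in 17 (TGFb 1 h minus mock) and 16 (TGFb 12 h minus mock) of the 24 alternatives, NARS2 at 1 h in 16 and HARS1 in the FT895 arm in 15. Depth is unknown, so what it limits could not be read.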
